A study of Homo sapiens with 8 samples.

Results

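The genes described here are 8 cytokine and receptor genes of tumour cells, measured in PC-3 cells on Clariom D microarrays: IL6, IL11 and LIF, the receptor subunits IL6R and IL6ST, IL1B, IL1A, and CXCL8. They were chosen by symbol in the array's probe table, and each is represented by its feature (a set of probes summarised to 1 value) with the highest mean level. All 8 of 8 were found among 33616 genes with a symbol of their own, and all 8 passed the filter on low values together with 23854 genes in total. IL1A passed that filter only through its arrays with TGF-β1 and lay under background on all 8 arrays. PC-3 is an established human prostate cancer line derived from a bone metastasis and known for growth without androgen. The cultures, in serum-containing medium, received both agents together, TGF-β1 alone or calcitriol alone for 24 h, or no treatment. TGF-β1 was given at 5 ng/mL, and calcitriol at 10 nM. The labels name no vehicle for the untreated controls, and all groups were of this 1 line. Each group had 2 arrays, A and B, from separate experiments per the labels. The study set the pair of agents against each agent alone.

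IL-6, IL-11 and LIF are secreted cytokines that signal through receptor complexes sharing the subunit gp130, the product of IL6ST. Gp130 activates JAK kinases and STAT3, and IL-6 is known in prostate cancer as a factor that tumour cells both make and respond to. IL-1α and IL-1β act through the IL-1 receptor and NF-κB, a route that is known to induce IL6 and CXCL8 in many cells. CXCL8 (interleukin-8) is a chemokine that attracts neutrophils through the receptors CXCR1 and CXCR2. Calcitriol, the active form of vitamin D, acts through the vitamin D receptor, and TGF-β1 signals through SMAD proteins.

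The 250 bases before the RefSeq gene start (GRCh38.p14) are shown for IL6 and IL1B, whose levels were higher with TGF-β1, and for CXCL8 and IL11, which did not pass the test, so that their promoters can be set side by side. RefSeq windows were matched for 7 of the 8 genes, without LIF. The IL6 window is chr7:22726950-22727199 on the plus strand, IL1B chr2:112836780-112837029 on the minus strand, CXCL8 chr4:73740319-73740568 on the plus strand and IL11 chr19:55370464-55370713 on the minus strand. Capitals mark exact matches to the motifs searched on both strands: C/EBP (TTGCNNAA), AP-1 (TGANTCA), STAT (TTCNNNGAA), the SMAD palindrome (GTCTAGAC), the NF-κB consensus (GGGRNNYYCC) and the vitamin D receptor DR3 element.
IL6: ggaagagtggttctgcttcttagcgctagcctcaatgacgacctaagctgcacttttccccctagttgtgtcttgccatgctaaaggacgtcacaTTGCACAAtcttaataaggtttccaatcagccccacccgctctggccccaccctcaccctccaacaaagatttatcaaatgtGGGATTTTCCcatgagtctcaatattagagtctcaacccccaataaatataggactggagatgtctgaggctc
IL1B: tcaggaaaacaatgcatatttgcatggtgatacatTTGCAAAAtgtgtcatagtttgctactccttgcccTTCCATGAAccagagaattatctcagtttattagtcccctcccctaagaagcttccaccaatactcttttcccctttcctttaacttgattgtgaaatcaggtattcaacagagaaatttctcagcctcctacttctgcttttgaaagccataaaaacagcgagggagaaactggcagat
CXCL8: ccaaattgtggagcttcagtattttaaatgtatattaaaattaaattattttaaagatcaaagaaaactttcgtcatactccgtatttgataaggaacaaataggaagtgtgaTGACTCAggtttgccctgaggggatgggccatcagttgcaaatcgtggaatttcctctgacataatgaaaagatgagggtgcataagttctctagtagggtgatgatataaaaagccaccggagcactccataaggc
IL11: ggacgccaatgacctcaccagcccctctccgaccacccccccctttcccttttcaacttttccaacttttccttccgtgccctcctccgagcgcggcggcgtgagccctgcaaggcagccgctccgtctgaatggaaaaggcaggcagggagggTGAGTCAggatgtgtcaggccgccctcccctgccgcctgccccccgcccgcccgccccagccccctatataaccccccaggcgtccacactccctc
The IL6 window held a C/EBP match at bases -155 to -148 and an NF-κB match at -73 to -64, counted from the gene start. The IL1B window held a C/EBP match at -215 to -208 and a STAT match at -180 to -172. CXCL8 held an AP-1 match at -137 to -131, and IL11 an AP-1 match at -96 to -90. Among the matched windows not shown, that of IL6ST, also not called, held an NF-κB match at -53 to -44. The IL6R window held no match to any of the motifs, and IL1A held AP-1 matches only. Over all 35116 such windows, a C/EBP match was present in 9.05%, NF-κB in 9.96%, AP-1 in 6.57%, STAT in 6.57%, the SMAD palindrome in 0.182% and DR3 in 0.202%. The 4 windows shown held no match to the last pair. No 2 of these motifs overlapped within a window. Near matches are not marked, such as ttgcaaat (near C/EBP) and tggaatttcc (near NF-κB) in the CXCL8 window. The lack of a mark therefore does not mean the lack of a site. A match is a description of the letters and was not tested as a binding site.

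The array medians lay between 4.33 and 4.35 log2 units, and arrays of 1 group correlated across genes at r = 0.988 to 0.991, against 0.977 to 0.990 between groups. The background used here, the 95th percentile of 612 negative control features of each array, was 4.62 to 4.90. The gap between positive and negative control features was 6.74 ± 0.051 log2 units with both agents, 6.93 ± 0.025 with TGF-β1, 6.98 ± 0.064 with calcitriol and 7.03 ± 0.015 in controls (SD, n = 2 each). It was thus narrowest in the combination arrays, and its part in their results was not tested. All 5 epithelial markers (EPCAM, KRT8, KRT18, KRT19, CDH1) lay above background on every array. Of 12 leukocyte markers, 4 did so (CD68 at 8.49 to 8.81, CSF1R, CD14 and CD79A), and 4 (CD3D, CD2, MS4A1, LYZ) were above it on none. PTPRC (CD45) was above it on 1 array, and averaged 3.90 with both agents and 4.68 in controls, so no test is given for it. No marker above background on every array was called in any comparison. Of 7 fibroblast markers, 2 were above background on every array (COL1A1 at 8.33 to 8.95 and COL1A2) and THY1 on none, and of 6 endothelial markers 3 (CDH5, VWF, CLDN5), with KDR and TEK on none. All arrays were of the PC-3 line per the labels, so these readings do not show that other cell types were present. The source of these signals was not tested. The summed level of the leukocyte markers was 9.49 to 9.52 log2 units with both agents, 9.70 to 9.77 with TGF-β1, 9.60 to 9.67 with calcitriol and 9.61 to 9.80 in controls. The lower sum with both agents was not particular to leukocyte markers. The epithelial sum was 12.90 to 12.91 with both agents and 13.08 to 13.10 in controls, and the endothelial sum 7.80 to 7.86 and 7.87 to 8.24. The fibroblast sums overlapped, at 9.32 to 9.61 and 9.54 to 9.77. KLK3, which encodes prostate-specific antigen and is known to be little expressed in PC-3, read 6.64 to 7.14 on the 8 arrays.

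IL6 carried the largest difference among the 8 genes. Its level was 10.32 and 9.94 log2 units with both agents, 9.94 and 10.05 with TGF-β1, 8.36 and 8.12 with calcitriol and 8.01 and 8.01 in controls. Every array with TGF-β1 lay above every array without it, and both calcitriol arrays lay above both controls. TGF-β1 alone raised IL6 3.97-fold over control (95% interval 3.13 to 5.04), a log2 change of 1.99 ± 0.15 (SE, adjusted p = 0.00315). With both agents IL6 rose 4.36-fold over control (3.44 to 5.54), a log2 change of 2.13 ± 0.15 (adjusted p = 0.00275). In calcitriol-treated cells, adding TGF-β1 raised IL6 3.71-fold (2.92 to 4.71; adjusted p = 0.0115). Adjusted p-values here are from limma with Benjamini-Hochberg adjustment over 23854 genes. RNA of whole cultures was measured, so a change in the share of cells that express a gene and a change per cell cannot be told apart.

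Calcitriol alone gave a log2 change of 0.23 in IL6 (95% interval -0.11 to 0.58, adjusted p = 0.752). The combination exceeded TGF-β1 alone by 0.14 (-0.21 to 0.48, adjusted p = 0.778). The order of the group means was thus combination, TGF-β1, calcitriol, control, and neither pair of neighbours that share TGF-β1 status passed the test. The call against control with both agents held when each of the 8 arrays was left out in turn (adjusted p 0.00865 to 0.0261). With TGF-β1 alone it was lost without TGF-β1 replicate B (log2 change 1.93, adjusted p = 0.0566), and against calcitriol without combination A (0.0911), calcitriol A (0.0598) or calcitriol B (0.106).

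IL11, a gp130 cytokine known as a TGF-β-responsive gene in fibroblasts and in cancer cells that form bone metastases, read 7.58 and 7.73 log2 units with both agents, 7.82 and 7.82 with TGF-β1, 7.44 and 7.31 with calcitriol and 7.18 and 7.36 in controls. Both TGF-β1 arrays lay above all others, and the control and calcitriol arrays overlapped. The log2 change with TGF-β1 was 0.55 (95% interval 0.29 to 0.81), which missed the threshold over all genes (adjusted p = 0.103). With both agents it was 0.39 (0.12 to 0.65, adjusted p = 0.104). A variance prior that follows intensity moved both past the threshold (adjusted p = 0.0111 and 0.0366), in a setting that called 3.01% of all genes for TGF-β1 and 12.6% for the combination. LIF, the leukaemia inhibitory factor, lay between 7.64 and 7.92 on all 8 arrays. Its log2 change was 0.10 with both agents (-0.16 to 0.35) and 0.08 with TGF-β1 (-0.18 to 0.33), and neither passed.

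**Figure D1:**
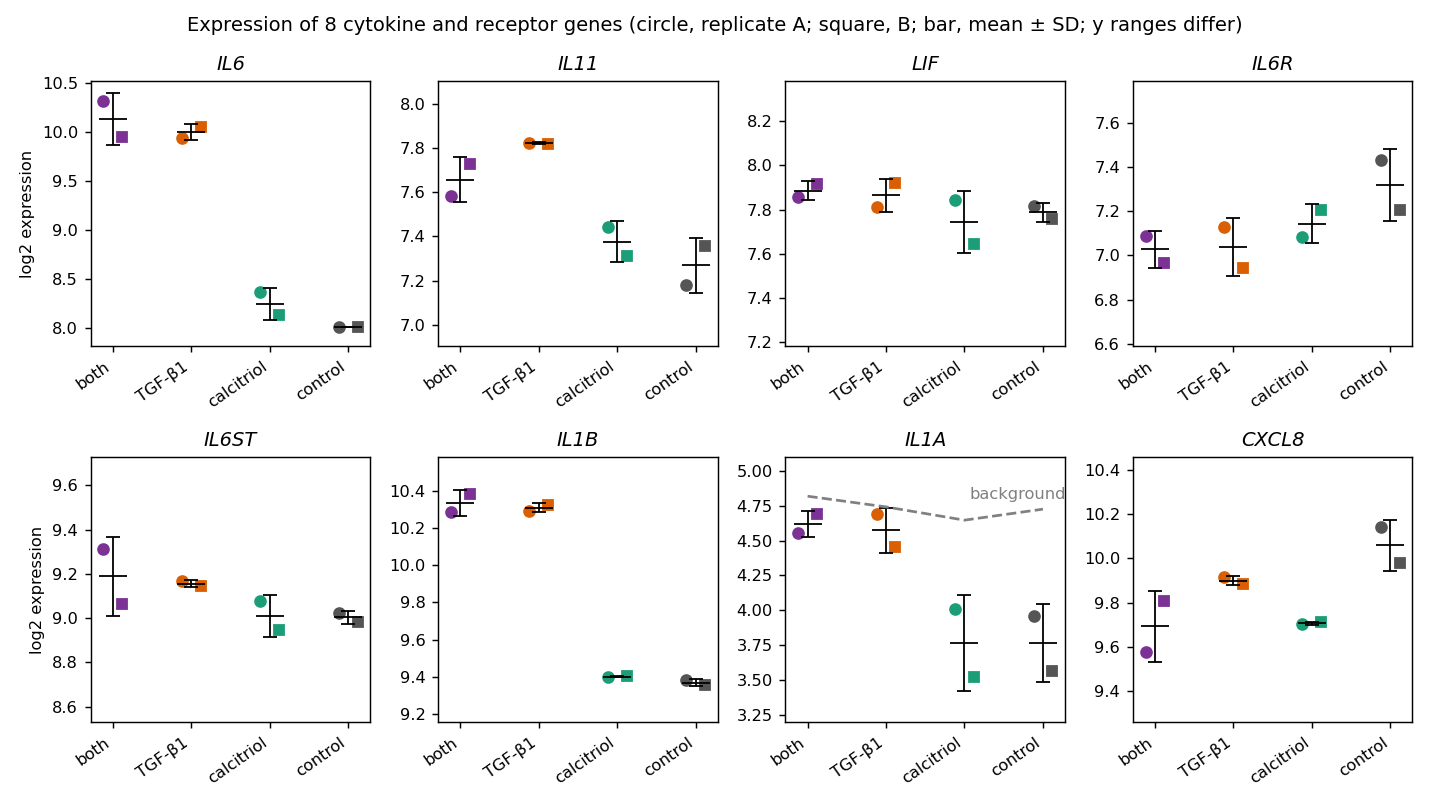
Level of each of the 8 genes on each array in log2 units, by treatment (circle, replicate A; square, replicate B; bar, mean ± SD, n = 2; the y range differs between panels). IL6 and IL1B separate by TGF-β1 with no overlap, and IL1A stays under the dashed background line on every array.

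Neither receptor gene was called on the features used. IL6ST, the gp130 subunit shared by the whole cytokine family, read 9.31 and 9.06 log2 units with both agents, 9.17 and 9.15 with TGF-β1, 9.08 and 8.94 with calcitriol and 9.02 and 8.98 in controls. Its log2 change was 0.19 with both agents and 0.15 with TGF-β1, and neither passed (adjusted p = 0.367 and 0.653). IL6R, the subunit that binds IL-6 itself, read 7.09 and 6.97 with both agents, 7.13 and 6.95 with TGF-β1, 7.08 and 7.21 with calcitriol and 7.43 and 7.20 in controls. The log2 changes of -0.29 with both agents and -0.28 with TGF-β1 did not pass (adjusted p = 0.212 and 0.421).

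A second feature also carries the IL6R symbol, and it is the one that the probe table pairs with the IL6R Entrez identifier. The feature with the highest mean has none. The second feature read 5.76 and 5.99 log2 units with both agents, 6.35 and 6.35 with TGF-β1, 6.46 and 6.77 with calcitriol and 6.57 and 6.53 in controls. Both combination arrays lay below the other 6. Put in place of the first, a choice made after its values were seen, it gave a log2 change of -0.67 ± 0.13 (SE) against control (adjusted p = 0.0487). In a fit of all 25434 features, which keeps both, the adjusted p was 0.0526. The same feature gave -0.48 for the combination against TGF-β1 and -0.74 against calcitriol, and its interaction term was -0.54 (adjusted p = 0.953). The features thus differ on IL6R, and which of them measures the coding transcript was not tested.

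**Figure D2:**
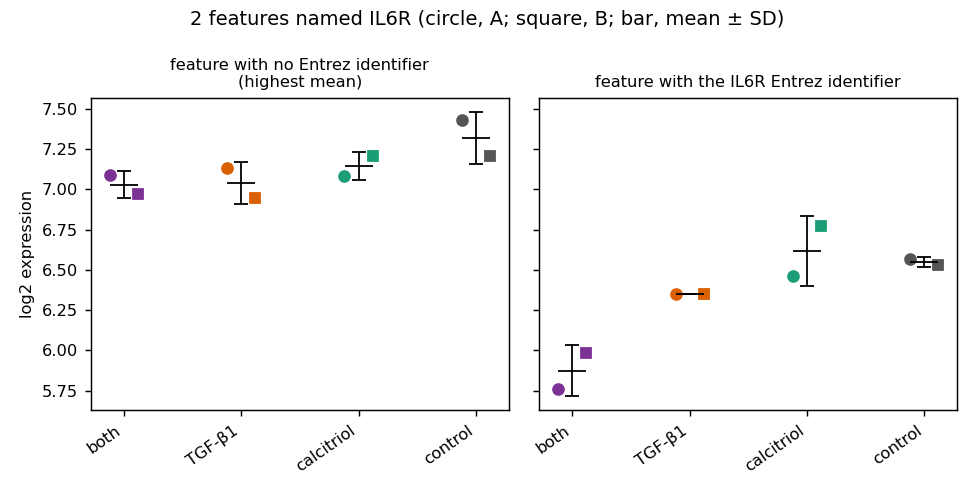
The 2 features named IL6R in log2 units on each array, by treatment (circle, replicate A; square, replicate B; bar, mean ± SD, n = 2). The combination arrays are lowest on the feature with the Entrez identifier, at 5.76 and 5.99, while on the other feature they overlap the TGF-β1 arrays.

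IL1B, which encodes the precursor of interleukin-1β, followed TGF-β1 as IL6 did. It read 10.29 and 10.38 log2 units with both agents, 10.29 and 10.33 with TGF-β1, 9.40 and 9.40 with calcitriol and 9.38 and 9.36 in controls. The arrays with TGF-β1 and those without formed separate ranges, with SDs of 0.003 to 0.070 within groups. TGF-β1 alone raised IL1B 1.92-fold (1.65 to 2.24; log2 change 0.94 ± 0.10, adjusted p = 0.0124). Both agents raised it 1.96-fold over control (1.68 to 2.28; 0.97 ± 0.10, adjusted p = 0.00723) and 1.91-fold over calcitriol alone (1.64 to 2.23; adjusted p = 0.0123). Calcitriol alone gave a log2 change of 0.03 (-0.19 to 0.25), and the combination exceeded TGF-β1 by 0.03 (-0.19 to 0.25).

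With 2 arrays per group, the IL1B calls rested on most of the arrays. The TGF-β1 call was lost without TGF-β1 A (adjusted p = 0.116), TGF-β1 B (0.131), control A (0.0638) or control B (0.0842). The combination call against control was lost without combination A (0.0696), combination B (0.0714) or control B (0.0555), and that against calcitriol without any of its own 4 arrays (0.096 to 0.14). The log2 change in these fits stayed between 0.89 and 1.02. IL1A, the neighbour of IL1B in the IL-1 gene cluster, read 4.55 and 4.69 with both agents, 4.69 and 4.46 with TGF-β1, 4.01 and 3.53 with calcitriol and 3.96 and 3.57 in controls. All 8 readings were under background, and IL1A entered the test only through its arrays with TGF-β1. No fold and no test is given for it in the text, and its points in the figures of changes are not read. The ranges of its log2 change with 1 array left out are listed further on and are not read either. CKAP2L, next to IL1A on the other side in RefSeq, gave log2 changes of -0.06 with both agents and -0.07 with TGF-β1.

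The highest CXCL8 levels were those of the controls. It read 9.58 and 9.81 log2 units with both agents, 9.92 and 9.88 with TGF-β1, 9.70 and 9.71 with calcitriol and 10.14 and 9.98 in controls. Both controls lay above the 6 treated arrays. The log2 change was -0.37 with both agents (95% interval -0.64 to -0.10, adjusted p = 0.121), -0.16 with TGF-β1 (-0.43 to 0.11, adjusted p = 0.633) and -0.35 with calcitriol (-0.62 to -0.08, unadjusted p = 0.0168, adjusted p = 0.636). None passed. With the intensity-dependent variance prior the combination value did (adjusted p = 0.00700), while against calcitriol alone the combination differed by -0.01 (-0.28 to 0.26).

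Counted over the 8 genes, IL1A included, 2 were called with TGF-β1 against control, both higher, where 0.608% of all genes were called and 0.344% were called higher. With both agents against control 2 were called higher, against 2.27% of genes called, 1.12% called higher and 1.15% called lower. For both agents against calcitriol the count was again 2 higher, against 0.587% called and 0.394% called higher. IL6 and IL1B made up each of these counts. Calcitriol against control called 0 of the 8 and 2 genes in all (0.00838%), both higher, with 1752 genes at an unadjusted p under 0.05. Both agents against TGF-β1 called 0 of the 8 and 0 genes in all (0%), with 2210 at an unadjusted p under 0.05. Over the 7 genes above background on every array, without IL1A, the median log2 change was 0.19 with both agents, 0.15 with TGF-β1 and 0.009 with calcitriol, against -0.06, -0.03 and -0.03 over all genes tested. Over the protein-coding genes tested, the class to which all 8 belong, these medians were -0.12, -0.06 and -0.05. Groups did not overlap for 7 of these 7 genes with both agents against control (54.3% of all genes), 6 with TGF-β1 (43.2%), 3 with calcitriol (36.7%), 4 for both agents against calcitriol (48.4%) and 2 against TGF-β1 (44.1%). The 3 comparisons against control share the control arrays. Cyclic loess over protein-coding genes moved the median change of all genes with both agents to 0.06, and turned the split of calls to 603 higher and 146 lower, against 267 and 275. For TGF-β1 the split was 111 and 48 after loess, against 82 and 63, and for both agents against calcitriol 109 and 32, against 94 and 46. IL6 and IL1B remained the called genes among the 8 in each (IL6 2.24 with both agents and 2.05 with TGF-β1 after loess).

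The TGF-β1 effect was also measured on separate arrays, since both agents against calcitriol and TGF-β1 against control have no array in common. The log2 change was 1.89 in calcitriol-treated cells and 1.99 in cells without calcitriol for IL6, and 0.93 and 0.94 for IL1B. The difference between these effects, the interaction, was -0.10 for IL6 (95% interval -0.59 to 0.39) and -0.01 for IL1B (-0.32 to 0.31). For IL11 the TGF-β1 effect was 0.28 with calcitriol and 0.55 without, an interaction of -0.27 (-0.64 to 0.10). No interaction passed for any of the 8, nor for any of the 23854 genes, of which 1229 had an unadjusted p under 0.05.

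**Figure D3:**
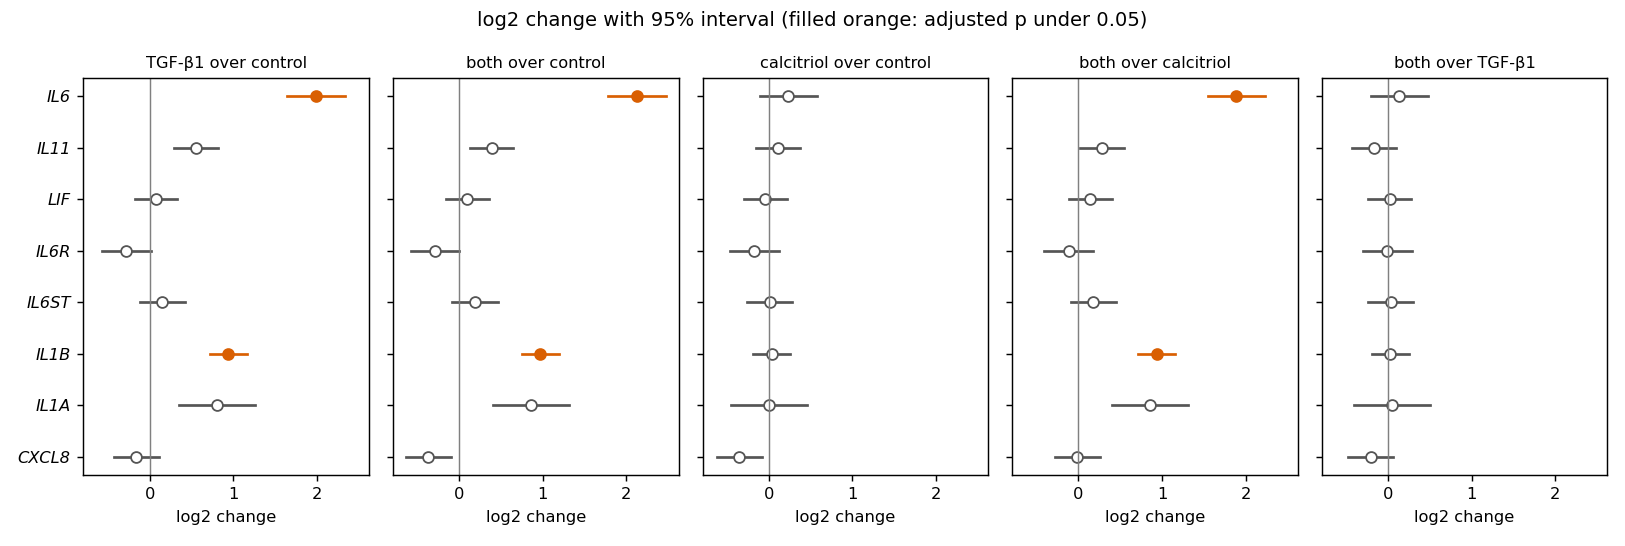
Log2 change of each of the 8 genes in 5 comparisons, with its 95% interval (filled orange, adjusted p under 0.05 over all genes; open, not past it). IL6 and IL1B pass in the 3 comparisons that differ by TGF-β1, and all intervals for both agents over TGF-β1 include 0. IL1A is drawn although it lay under background on all 8 arrays and entered the test only through its arrays with TGF-β1. Its intervals are not read as a result.

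The other genes of these pathways were taken from 11 lists holding 140 genes, of which 109 were tested. Of 7 tested gp130 cytokines, IL6 alone was called in the 3 comparisons that differ by TGF-β1. OSM (oncostatin M) gave log2 changes of 0.22 with both agents and 0.30 with TGF-β1, and CTF1 (cardiotrophin-1) -0.30 and -0.23, none past the threshold. Of 10 gp130 family receptors and shedding proteases, 0 were called in any comparison. Among those above background on every array, IL27RA, a receptor subunit for interleukin-27, had the largest changes against control, at -0.33 with both agents and -0.31 with TGF-β1. CNTFR, the receptor subunit for ciliary neurotrophic factor, lay near background (above it on 6 of 8 arrays), and no change is given for it. Of 9 tested JAK and STAT proteins 0 were called, and TYK2, a JAK family kinase, had the largest change with both agents at -0.39 (adjusted p = 0.0852). JAK2 had the largest change with TGF-β1, at -0.35 (adjusted p = 0.305). The JAK2 feature used has no Entrez identifier. A second JAK2 feature, which has one, gave -0.70 with TGF-β1 (adjusted p = 0.104 in the fit of all 25434 features) and -0.26 with both agents (0.315). Which of the JAK2 features measures the coding transcript was not tested. The feature of STAT3, which PC-3 is known to lack, read 4.0 to 4.71 and was at or under background on all 8 arrays.

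Of 19 tested genes listed as STAT3 feedback or target genes, 3 were called higher and 1 lower with both agents, where 1.12% of all genes were called higher and 1.15% lower. With TGF-β1 2 were called higher, against 0.344% of all genes. The median log2 change of the list was 0.002 with both agents and 0.06 with TGF-β1. SOCS3, the feedback inhibitor of gp130 signalling, read 5.80 and 6.21 with both agents, 6.31 and 6.13 with TGF-β1, 6.13 and 6.02 with calcitriol and 6.15 and 6.17 in controls. Its combination and TGF-β1 arrays overlapped the controls, and its calcitriol arrays lay below them. The called genes were JUNB, VEGFA, TIMP1 and MYC, and each is also known as a TGF-β-responsive gene. What changed them here was not tested. JUNB, an AP-1 subunit, read 7.32 and 7.44 with both agents, 7.19 and 7.40 with TGF-β1, 6.92 and 6.79 with calcitriol and 6.23 and 6.13 in controls. It rose by 1.20 with both agents (2.29-fold, adjusted p = 0.00723) and 1.12 with TGF-β1 (2.17-fold, adjusted p = 0.0134). Its change with both agents against calcitriol was 0.52 and did not pass (adjusted p = 0.137). With calcitriol alone JUNB gave 0.67 (adjusted p = 0.445) and TIMP1 0.41 (adjusted p = 0.555), where the list median was -0.05. VEGFA, an angiogenic growth factor, rose by 0.69 with both agents (adjusted p = 0.0219), 0.79 with TGF-β1 (0.0237) and 0.62 with both agents against calcitriol (0.0497). With both agents, TIMP1, a metalloproteinase inhibitor, rose by 0.73 (adjusted p = 0.0172), and MYC, the growth-promoting transcription factor, fell by 0.74 on the log2 scale (adjusted p = 0.0275).

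With arrays left out in turn, JUNB was lost with both agents without combination A, combination B or control B (adjusted p up to 0.0776), and with TGF-β1 without any of its own 4 arrays (up to 0.131). TIMP1 was lost without the same 3 arrays as JUNB (up to 0.110). MYC kept its call without TGF-β1 A or B and lost it without any other array (up to 0.138). VEGFA kept its call with both agents against control without calcitriol A or B, and lost it without any of the other 6 (up to 0.125). Its other calls were lost without any 1 of the 8 arrays (up to 0.181 with TGF-β1 and 0.251 against calcitriol).

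Among 10 tested IL-1 family ligands IL1B alone was called. IL1RN, which encodes the IL-1 receptor antagonist, read 5.51 and 5.75 with both agents, 5.63 and 5.32 with TGF-β1, 6.23 and 5.76 with calcitriol and 5.60 and 5.81 in controls. Each treated group overlapped the controls, and no comparison passed. IL36RN, the IL-36 receptor antagonist, read 4.79 and 4.87 with both agents, the second under its background, against 5.31 and 5.53 in controls (adjusted p = 0.0621). Of 13 tested receptors and signalling proteins of the family, 0 were called. IL1R1, the signalling IL-1 receptor, gave 0.57 with both agents (adjusted p = 0.103) and IL1RL1, the IL-33 receptor, 0.73 with calcitriol (adjusted p = 0.549). Of 7 tested IL-1 maturation genes 0 were called, and CASP1, the protease that cleaves the IL-1β precursor, was at or under background on all 8 arrays, as were CASP5 and AIM2.

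CXCL8 belongs to the chemokines that bind CXCR2. Of 8 tested genes of that list, PPBP (CXCL7) was the 1 called. It read 5.89 and 6.60 with both agents, 5.93 and 6.04 with TGF-β1, 5.12 and 5.11 with calcitriol and 4.91 and 4.93 in controls. Every array with TGF-β1 lay above every array without it. The change with both agents was 2.51-fold (log2 1.33, adjusted p = 0.0282), and the call was kept without combination A and lost without any other array (log2 change 0.97 without combination B, adjusted p up to 0.128). With TGF-β1 alone it was 1.06 (adjusted p = 0.0900). CXCL5 gave log2 changes of 0.56 with both agents and 0.54 with TGF-β1, and CXCL6 0.49 and 0.52, all short of the threshold (adjusted p = 0.0555, 0.118, 0.0841 and 0.158). CXCL1 gave -0.26 with calcitriol. Both receptors, CXCR1 and CXCR2, were at or under background on every array.

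Of 12 tested proteins that bind or regulate cytokine mRNA, ZFP36L1, which promotes decay of AU-rich transcripts, was called with both agents (log2 change 0.59, adjusted p = 0.0374), a call lost without any 1 of the 8 arrays (up to 0.153). It gave 0.57 with TGF-β1 (adjusted p = 0.0666). Among 13 other tested cytokines, CSF1, the macrophage colony-stimulating factor, read 8.01 and 7.87 with both agents, 7.58 and 7.68 with TGF-β1, 7.05 and 6.91 with calcitriol and 6.98 and 7.06 in controls. The combination arrays were the highest, above those with TGF-β1, and the remaining arrays overlapped. CSF1 rose by 0.92 with both agents against control (1.89-fold, adjusted p = 0.0136) and by 0.96 against calcitriol (adjusted p = 0.0158). The change of 0.61 with TGF-β1 did not pass (adjusted p = 0.0689). The first call was lost without combination A, combination B or control B (up to 0.104), and the second without any array but the controls (up to 0.143). CCL2, the monocyte chemoattractant, read 4.57 and 4.46 with calcitriol, both under background, against 5.34 and 5.21 in controls. The comparison did not pass (adjusted p = 0.403), and no fold is given.

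**Figure D4:**
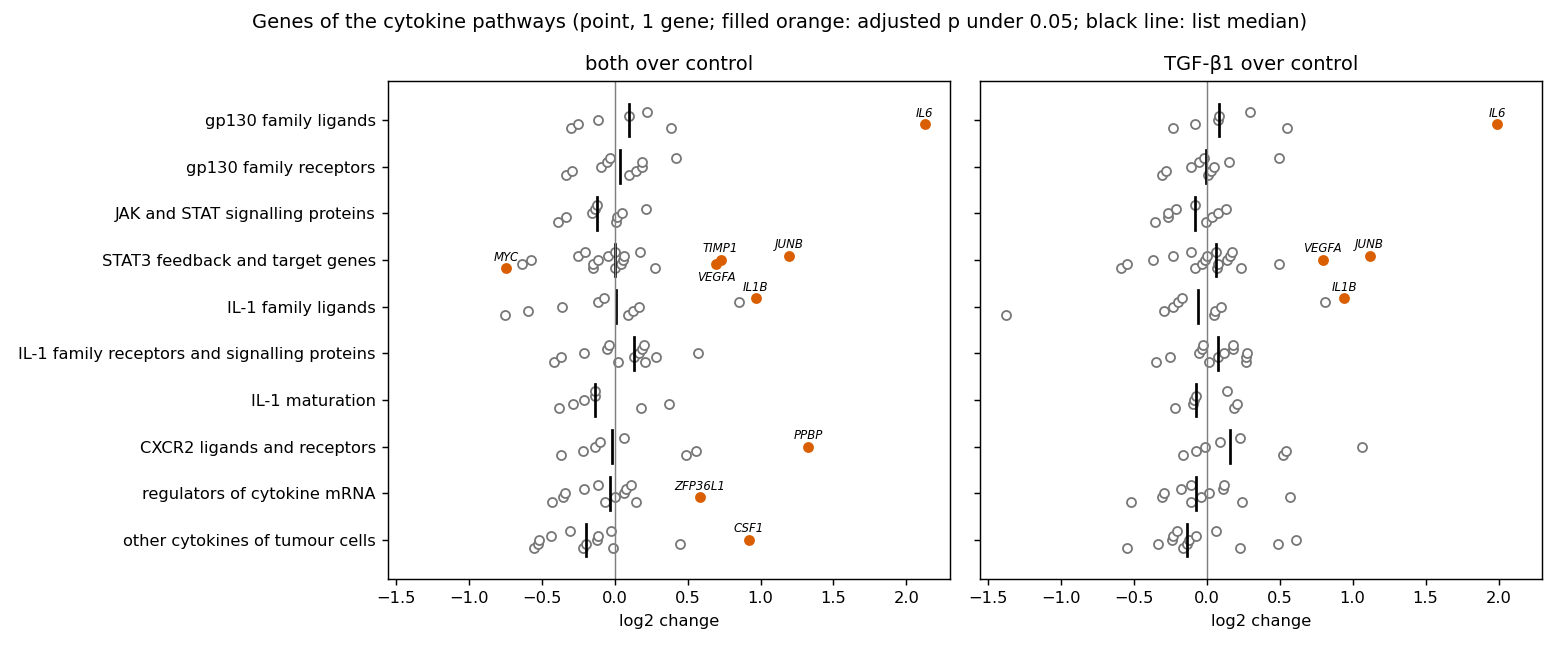
Log2 change of each tested gene of 10 pathway lists (1 point per gene; filled orange, adjusted p under 0.05; black line, list median), with both agents over control on the left and TGF-β1 over control on the right. List medians lie near 0, and single genes such as IL6, JUNB and PPBP stand apart. IL1A is drawn although it lay under background on every array, and its point is not read as a result.

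The genes whose levels lay closest to those of IL6, IL1B and CXCL8 were found by the root mean square difference of log2 levels over the 8 arrays, each gene set relative to its control mean, among 14792 protein-coding genes. For IL6 the closest were ITGB3 (0.243), SGK1 (0.260), ITGB6 (0.262), SULT1B1 (0.375) and PRDM1 (0.385), where the median gene differed by 1.54. SULT1B1 was above background on 1 of 8 arrays. ITGB3 and ITGB6 encode integrin β subunits, SGK1 a serum- and glucocorticoid-inducible kinase. For IL1B they were HBEGF (0.0911), GPAM (0.101), FRMD6 (0.101), IGF1R (0.102) and TUFT1 (0.104), with a median of 0.753. HBEGF is a ligand of the EGF receptor. For CXCL8 they were YRDC (0.0468), SLC35C1 (0.0558), IER5 (0.0614), C1QL3 (0.0624) and COMMD5 (0.0636), with a median of 0.264, and C1QL3 was above background on 7 of 8 arrays. Among the 7 genes above background on every array, IL11 was nearest to IL1B (0.357) and IL1B nearest to IL6 (0.799). These distances describe 8 arrays of 4 groups and carry no test.

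**Figure D5:**
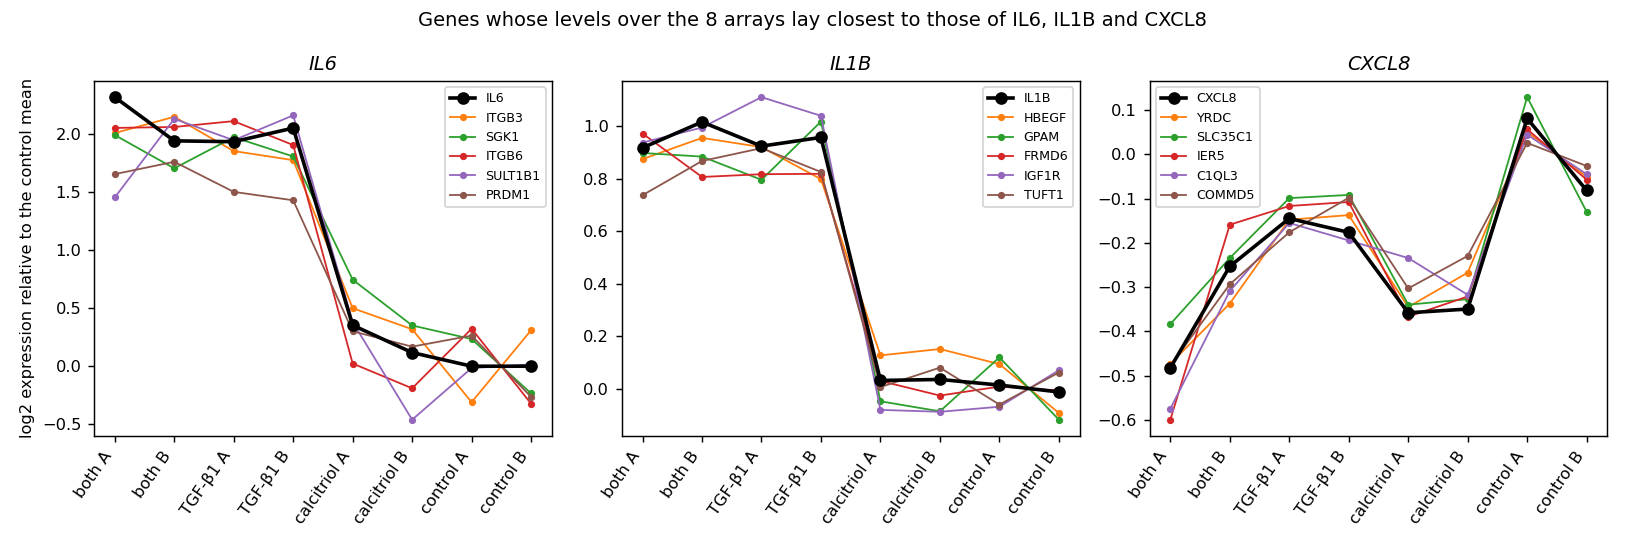
Log2 level relative to the control mean on each array for IL6, IL1B and CXCL8 (black) and the 5 protein-coding genes closest to each (colours). The profiles of IL6 and IL1B fall into arrays with and without TGF-β1, while that of CXCL8 is highest on the control arrays.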

How the data were processed

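The values are the deposited log2 expression values made by the authors for 8 Clariom D arrays, 1 per feature. RMA, oligo and limma are named without versions, per the submitters' processing notes; the log base was taken to be 2, as in standard RMA output. The annotation build is not given in the sources used here. Exactly 1 symbol was listed for 36176 of 138745 features. Features that exceeded 4.34 (50th percentile) on 2 or more arrays entered the test. limma 3.58.1 (R 4.3.3, version 1.17.8 of data.table) estimated group means from the 8 arrays (4 residual degrees of freedom, 6 two-sided contrasts), with Benjamini-Hochberg adjustment of p-values across the 23854 genes at a threshold of 0.05. Alternatives changed the filter, feature per gene, normalization, genes tested, arrays in the fit, replicate letter and variance prior, or left out 1 array. The pipeline was tested on simulated data. The 8 genes and all lists were chosen with earlier results of these data known. List genes are named where called, otherwise up to 3 with the largest change and a group mean above background, with no change given where a compared array lay under it. SOCS3, IL1RN, STAT3 and genes at background were named after their values were seen. Of 140 list genes, 15 are not in the probe table and were not analysed here. Precision is limited by 2 arrays per group, with which an exact permutation test cannot reach 0.05.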

Additional observations from a re-analysis of the deposited data

How the results depend on the processing

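IL6 and IL1B kept their direction in the 3 comparisons that differ by TGF-β1 under all alternatives run. With only the compared groups in the fit, the number of the 8 genes called was 1 with both agents against control, 1 with TGF-β1 and 0 with both agents against calcitriol, where fewer arrays entered. With the intensity trend it was 5 with both agents against control, of which IL1A lay under background on all arrays. Leaving out 1 array gave 1 to 2 with both agents against control, 0 to 2 with TGF-β1, 0 to 2 with both agents against calcitriol, and 0 to 0 elsewhere. The letter A or B as a replicate block changed no call among the 8 genes (IL6 1.99 and IL1B 0.94 with TGF-β1). The A minus B differences correlated between groups at -0.08 to 0.08 across genes. These values do not tell whether arrays of the same letter came from the same experiment. Among the list genes, VEGFA (with TGF-β1, and with both agents against calcitriol) and ZFP36L1 lost their calls under the block. Without the filter MYC, PPBP, ZFP36L1 and every VEGFA call were lost (adjusted p 0.0575 to 0.129). With only the compared groups in the fit, every call of a list gene outside the 8 was lost (0.0588 to 0.175). Genes called overall numbered 542 with both agents, 145 with TGF-β1 and 140 with both agents against calcitriol, as reported. They numbered 213, 43 and 66 under the block, 134, 38 and 56 without the filter, 931, 242 and 189 over protein-coding genes, 14, 12 and 2 with only the compared groups, and 2996, 719 and 976 with the trend. The cause was not tested.

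Signs turned in 34 values, all of a gene in a comparison where it was not called, with a reported change of at most 0.17 in size. They include values of IL1A, whose readings were all under background. Its ranges are listed below only to record the turned signs, and they are not read as a result. Cyclic loess gave 0.063 for CXCL8 with both agents against calcitriol, 0.038 for IL6R with both agents against TGF-β1, 0.0008 for LIF with calcitriol and 0.024 for the IL1B interaction. The IL6R feature with an Entrez identifier gave 0.069 with calcitriol and an interaction of -0.54, and the mean of its features an interaction of -0.19. With 1 array left out, both agents against calcitriol ranged from -0.13 to 0.10 for CXCL8. Calcitriol against control ranged from -0.24 to 0.24 for IL1A, -0.058 to 0.076 for IL6ST and -0.14 to 0.056 for LIF. Both agents against TGF-β1 ranged from -0.051 to 0.32 for IL6, -0.023 to 0.076 for IL1B, -0.069 to 0.16 for IL1A, -0.10 to 0.083 for IL6R, -0.093 to 0.16 for IL6ST and -0.033 to 0.074 for LIF. The interaction ranged from -0.29 to 0.090 for IL6, -0.056 to 0.043 for IL1B, -0.20 to 0.29 for IL1A, -0.10 to 0.15 for IL6ST and -0.036 to 0.16 for LIF.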

Other observations

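The reading of STAT3 at background was set beside its genomic neighbours, a comparison chosen after its value was seen. Of the 12 protein-coding genes on each side in RefSeq order, 22 are in the probe table. Of these, 19 lay above background on all 8 arrays and 2 on none, where 71.8% of all protein-coding genes did so on all arrays and 18.4% on none. The 2 were STAT5B (3.05 to 3.96) and HSPB9 (2.07 to 2.57). STAT5A, which lies between STAT5B and STAT3, read 6.05 to 6.59 on the 8 arrays, and CAVIN1, on the other side of STAT3, 5.06 to 5.73. A reading above this background was not tested as expression of the named gene.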
